A study of Mus musculus with 19 samples.

Results

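The genes described here are 10 mouse targets of the transcription factor p53 that are linked to cell death: Aen, Phlda3, Zmat3, Bax, Bbc3, Pmaip1, Tnfrsf10b, Fas, Trp53inp1 and Perp. They were chosen by name, with the behaviour of Aen at the highest dose already known. All non-control probes whose RefSeq accession belongs to one of the 10 were taken. This gave 12 of the 55681 probes on the array, with 2 each for Aen and Trp53inp1. Of these 12 probes, 11 passed the filter on dim signal (liver well above background on at least 4 arrays), so 9 of the 10 genes have a measured level, among 13812 genes with such a probe. Pmaip1 is the dim one.

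The livers came from male transgenic mice (strain 40.6) aged 10 weeks. Dibenz[a,h]anthracene, which belongs to the polycyclic aromatic hydrocarbons, had been given 3 days earlier. The doses were 0 mg/kg (5 mice), 6.25 mg/kg (5 mice), 12.5 mg/kg (4 mice) and 25 mg/kg (5 mice). Each of the 19 arrays held 1 animal's liver RNA labelled red against a green-labelled reference RNA pooled from 11 mouse cell lines. All values below are log2 of liver over that reference. Per the labels, the animals at 0 mg/kg are of the same transgenic strain as the treated ones. They are called untreated below, which means a dose of 0 mg/kg, whether or not a vehicle was given. Because whole liver was measured, fewer cells of a type and less RNA per cell cannot be told apart.

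After DNA damage, p53 is stabilised and switches on genes that stop the cell cycle, repair DNA or lead to cell death. The death genes act at separate points. Bax, Bbc3 (PUMA) and Pmaip1 (NOXA) belong to the Bcl-2 family and act at the mitochondrial membrane, while Fas and Tnfrsf10b are death receptors at the cell surface. Aen is a nuclease induced by p53, Phlda3 restrains the survival kinase Akt, and Zmat3 is a zinc finger protein that binds RNA. Trp53inp1 is a stress protein that acts with p53, and Perp is a membrane protein of desmosomes. Metabolites of polycyclic aromatic hydrocarbons form DNA adducts, which is the kind of damage that activates p53.

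The arrays lay on 3 slides, and slide 1 was scanned later than the rest, by 7 days. All doses were present on each slide, with 1 untreated animal on slide 3. Slide 1 held 1 animal at each treated dose, and slide 3 held 1 at 12.5 mg/kg. Each change within slide 1 or slide 3 therefore rests on 1 animal on at least 1 side. Changes within single slides, and those fitted with slide as a block, stand next to the main values. Per array, 35.5 to 56.7% of spots passed the scanner's background test in liver. That share was lowest on average at 12.5 mg/kg (39.8% ± 5.01, SD, n = 4), against 47.0% ± 7.90 at 0 mg/kg (n = 5). On slide 1 it was 38.3% for 12.5 mg/kg replicate 4, against 52.4 to 56.7% on the other arrays. Hepatocyte markers identified the tissue: the mean log2 ratio over 10 of 10 markers lay between 6.42 and 8.30 on all 19 arrays.

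The promoters of Aen, Bax and Bbc3 are shown because p53 acts on its targets through paired copies of a 10-base half-site. RefSeq promoter windows (GRCm38.p6, 250 bases before the start and 50 after) were available for 5 of the 10 genes, namely Aen, Phlda3, Bax, Bbc3 and Fas. Capitals mark the pair of p53 half-sites, at most 13 bases apart, with the fewest departures from the consensus. Only copies that keep the fixed C and the fixed G of the consensus were paired. The half-site reads the same on both strands. The windows are chr7:78895808-78896107 (plus strand) for Aen, chr7:45466849-45467148 (minus strand) for Bax and chr7:16309333-16309632 (plus strand) for Bbc3.
Aen: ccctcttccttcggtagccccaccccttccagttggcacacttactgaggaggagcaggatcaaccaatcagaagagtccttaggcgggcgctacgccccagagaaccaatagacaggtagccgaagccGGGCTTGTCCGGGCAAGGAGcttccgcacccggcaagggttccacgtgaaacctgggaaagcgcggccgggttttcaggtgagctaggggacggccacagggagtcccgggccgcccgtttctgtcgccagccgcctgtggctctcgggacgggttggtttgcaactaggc
Bax: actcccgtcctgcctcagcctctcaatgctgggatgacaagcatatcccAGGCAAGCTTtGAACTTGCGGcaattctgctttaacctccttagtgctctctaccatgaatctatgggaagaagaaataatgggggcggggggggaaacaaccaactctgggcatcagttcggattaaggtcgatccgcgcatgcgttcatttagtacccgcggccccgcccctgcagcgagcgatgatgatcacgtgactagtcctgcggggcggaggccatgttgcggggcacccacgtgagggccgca
Bbc3: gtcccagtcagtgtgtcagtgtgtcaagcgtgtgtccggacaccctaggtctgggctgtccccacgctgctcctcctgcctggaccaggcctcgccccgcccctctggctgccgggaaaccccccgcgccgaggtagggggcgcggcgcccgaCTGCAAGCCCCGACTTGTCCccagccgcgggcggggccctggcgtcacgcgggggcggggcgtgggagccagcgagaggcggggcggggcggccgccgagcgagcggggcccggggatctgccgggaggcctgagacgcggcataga

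Aen held an exact half-site (GGGCTTGTCC) directly followed by one with 3 mismatches. Bax held an exact half-site (AGGCAAGCTT) and, 1 base further on, one with 2 mismatches. In Bbc3 the first copy had 2 mismatches and the next had 1, and 2 further Bbc3 windows had best pairs with 3 and 6 mismatches. Across all 32851 promoter windows, 8.36% held an exact half-site. Such a pair with at most 2 mismatches in all was held by 4.09%, and one with at most 3 by 15.6%. The best such pair in the windows of Phlda3 and of Fas had 5 mismatches. These matches describe letters in a window and show no binding.

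Aen was lowest on average at 0 mg/kg and highest at 25 mg/kg, which is the difference it was chosen for. Its log2 ratio was -0.86, -0.60, -1.13, -0.56 and -0.45 in the animals at 0 mg/kg and -0.05, -0.66, -0.56, -0.38 and -0.33 at 6.25 mg/kg. It was -0.16, 0.06, -0.43 and 0.54 at 12.5 mg/kg and 0.06, 0.54, 0.49, -0.06 and 0.49 at 25 mg/kg. The lowest animals at 12.5 and at 25 mg/kg both lay above the highest untreated animal, so neither dose overlapped 0 mg/kg, whereas 6.25 mg/kg did, with 3 of its 5 animals above the untreated range. Group means were -0.72 ± 0.28, -0.39 ± 0.24, 0.0029 ± 0.41 and 0.30 ± 0.28 from the lowest dose to the highest (SD). Neighbouring doses overlapped each other at every step.

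At 25 mg/kg Aen was 2.03-fold above 0 mg/kg (log2 change 1.02 ± 0.18, SE), and its second probe gave 1.01 ± 0.16. This comparison is the one that drew attention to Aen, so it is given as a description, without a test. Within slides 1, 2 and 3 the change was 0.99, 1.08 and 1.16. Over 19 fits with 1 array left out it lay between 0.92 (without 0 mg/kg replicate 3) and 1.11 (without 25 mg/kg replicate 4).

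**Figure D1:**
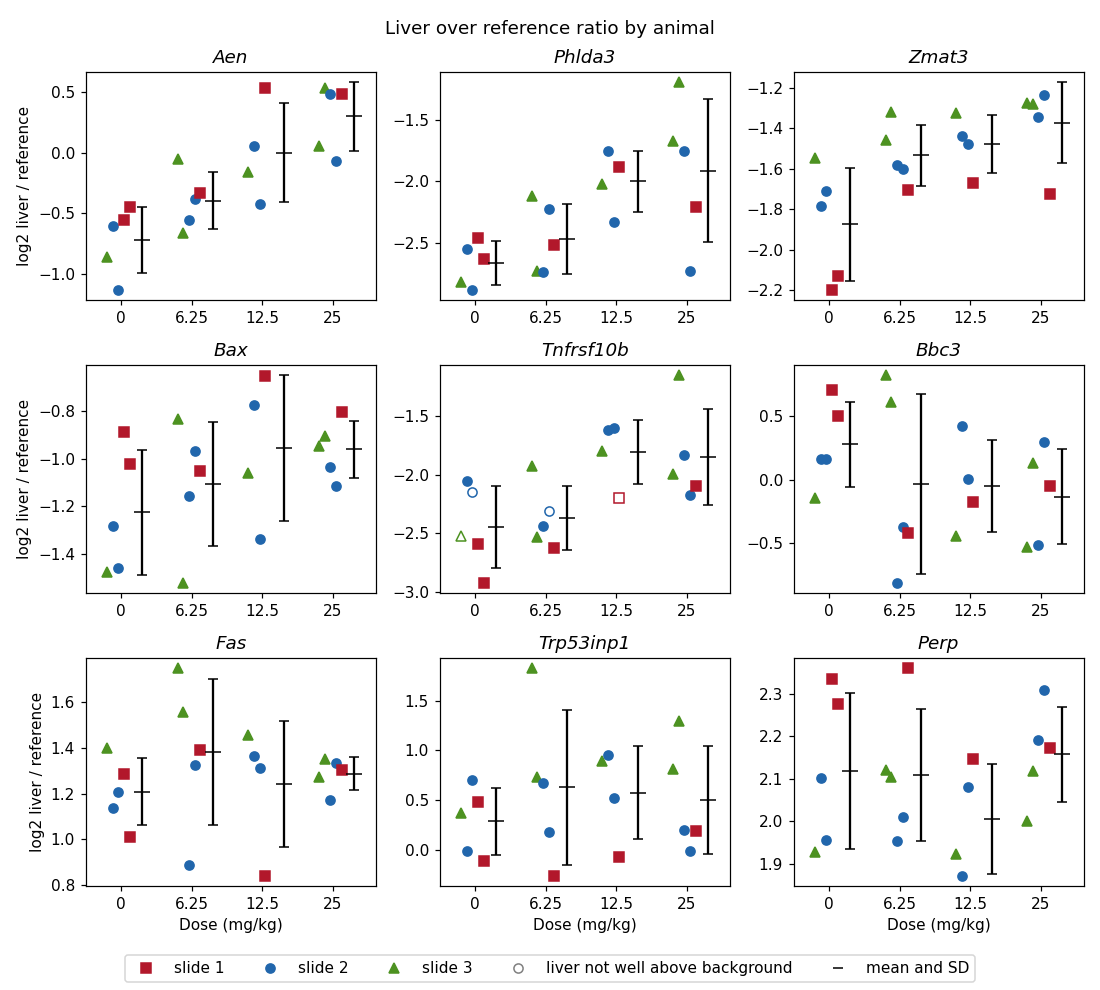
Log2 ratio of liver over reference for the 9 measured genes, 1 point per animal, by dose in mg/kg, with slide shown by symbol and the mean and SD beside each group. Aen has a mean of 0.30 at 25 mg/kg, against -0.72 at 0 mg/kg, while Perp lies between 1.87 and 2.36 on all 19 arrays.

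At 12.5 mg/kg Aen was 1.65-fold above 0 mg/kg (0.72 ± 0.19, 95% interval 0.32 to 1.12), with 4 of 4 animals above the untreated mean. This did not pass the threshold of an adjusted p under 0.05 in limma (adjusted p = 0.783, and 0.15 with slide as a block, where the change was 0.78 ± 0.16). The values within slides 1, 2 and 3 were 1.04, 0.68 and 0.70, where slide 3 sets 1 animal against 1. With 1 array left out the change lay between 0.54 (without 12.5 mg/kg replicate 4) and 0.87 (without replicate 3 of that dose). At 6.25 mg/kg the change was 0.33 ± 0.18 (interval -0.053 to 0.70, adjusted p = 0.912, and 0.344 with the block). Both doses share their control animals with the comparison at 25 mg/kg. The step between 12.5 and 6.25 mg/kg uses none of the control animals and none of those at 25 mg/kg, and was 0.40 ± 0.19 (interval -0.0038 to 0.80), with limma's adjusted p near 1 (0.368 with the block). Within slides 1, 2 and 3 that step was 0.87 (1 animal against 1), 0.28 and 0.19. It was 0.22 without 12.5 mg/kg replicate 4 and 0.24 without slide 1.

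Phlda3, whose product competes with Akt for membrane lipids, lay above the untreated range at 12.5 mg/kg. Its log2 ratio was -2.82, -2.55, -2.88, -2.46 and -2.63 at 0 mg/kg and -2.12, -2.73, -2.74, -2.22 and -2.52 at 6.25 mg/kg. It was -2.02, -1.75, -2.34 and -1.89 at 12.5 mg/kg and -1.67, -1.19, -1.76, -2.73 and -2.21 at 25 mg/kg. One animal at 25 mg/kg (replicate 4) sat inside the untreated range, and the other 4 lay above it. The spread was widest at that dose (SD 0.58, against 0.18 at 0 mg/kg).

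The log2 change of Phlda3 was 0.67 ± 0.23 at 12.5 mg/kg (1.59-fold, interval 0.19 to 1.15, adjusted p = 0.999, and 0.337 with the block in limma). The values within slides 1, 2 and 3 were 0.66, 0.67 and 0.80. At 6.25 mg/kg it was 0.20 ± 0.22 (interval -0.25 to 0.65, adjusted p = 0.942). As a description, it was 0.76 ± 0.22 at 25 mg/kg, and 0.34, 0.47 and 1.39 within the slides. That last value rests on the single untreated animal of slide 3, and the change at 25 mg/kg was 0.58 without replicate 2 of that dose.

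Zmat3 differed between doses by less than Aen and varied with slide. Its log2 ratio was -1.55, -1.79, -1.71, -2.20 and -2.13 at 0 mg/kg and -1.46, -1.32, -1.58, -1.60 and -1.71 at 6.25 mg/kg. It was -1.32, -1.44, -1.48 and -1.67 at 12.5 mg/kg and -1.28, -1.28, -1.34, -1.23 and -1.72 at 25 mg/kg. In each dose group the lowest value came from slide 1, and slide accounted for 57.8% of the variance of Zmat3 (5.13% for Aen).

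With slide as a block the standard error of Zmat3 at 25 mg/kg was 0.07, against 0.13 without. The change at 6.25 mg/kg was 0.25 ± 0.07 with the block and 0.34 ± 0.13 without (limma's adjusted p = 0.228 and 0.878). At 12.5 mg/kg it was 0.34 ± 0.08 with the block and 0.40 ± 0.14 without (adjusted p = 0.156 and 0.999). As a description, at 25 mg/kg it was 0.41 ± 0.07 with the block and 0.50 ± 0.13 without, and 0.44, 0.46 and 0.27 within slides 1, 2 and 3. The change was above 0 within all 3 slides at every dose. The liver signal of Zmat3 was low (log2 7.12 to 7.90), though well above background on all 19 arrays. Over the processing choices tried, its change lay between 0.40 and 0.76 at 25 mg/kg. It lay between 0.22 and 0.40 at 12.5 mg/kg and between 0.19 and 0.50 at 6.25 mg/kg. Between 12.5 and 6.25 mg/kg it was 0.056, and -0.17 with the scanner software's processed signals.

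Of the death receptors, Tnfrsf10b, the mouse receptor for the ligand TRAIL, had higher means at 12.5 and 25 mg/kg than at 0 and 6.25 mg/kg, while the means of Fas lay close together. Tnfrsf10b is dim: liver signal was well above background on 15 of 19 arrays (3 of 5 at 0 mg/kg, 4 of 5 at 6.25, 3 of 4 at 12.5 and 5 of 5 at 25 mg/kg). Its log2 ratio was -2.52, -2.06, -2.15, -2.59 and -2.92 at 0 mg/kg and -1.93, -2.53, -2.44, -2.31 and -2.63 at 6.25 mg/kg. It was -1.80, -1.62, -1.60 and -2.20 at 12.5 mg/kg and -2.00, -1.15, -1.83, -2.17 and -2.09 at 25 mg/kg. At 12.5 mg/kg 3 of 4 animals, and at 25 mg/kg 3 of 5, lay above the highest untreated animal, and every group overlapped 0 mg/kg.

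The change of Tnfrsf10b was 0.64 ± 0.21 at 12.5 mg/kg (1.56-fold, interval 0.20 to 1.09, adjusted p = 0.99, and 0.298 with the block) and 0.08 ± 0.20 at 6.25 mg/kg (adjusted p = 0.973). Between 12.5 and 6.25 mg/kg it was 0.56 ± 0.21 (interval 0.12 to 1.01, adjusted p near 1, and 0.219 with the block), and 0.43, 0.76 and 0.43 within slides 1, 2 and 3. As a description it was 0.60 ± 0.20 at 25 mg/kg, where the scanner software's own processed signals gave 1.41. Those signals gave 0.46 at 6.25 mg/kg and 1.15 at 12.5 mg/kg, and without slide 1 the change at 6.25 mg/kg was -0.060. Within slides 1, 2 and 3 the change at 25 mg/kg was 0.66, 0.098 and 0.95.

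Fas was bright in liver relative to the cell lines, with ratios from 0.84 to 1.75. Its median was 1.21 at 0 mg/kg, 1.39 at 6.25, 1.34 at 12.5 and 1.30 at 25 mg/kg. The change was 0.17 ± 0.14 at 6.25 mg/kg and 0.035 ± 0.15 at 12.5 mg/kg (adjusted p = 0.929 and 0.999), with an interval at 12.5 mg/kg of -0.28 to 0.35. At 25 mg/kg it was 0.08 ± 0.14, again without a test.

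In the mitochondrial arm, Bax, which forms pores in the outer membrane, had ratios from -1.52 to -0.65. Its mean was -1.23 ± 0.26 at 0 mg/kg, -1.11 ± 0.26 at 6.25, -0.96 ± 0.30 at 12.5 and -0.96 ± 0.12 at 25 mg/kg (SD). The change was 0.27 ± 0.16 at 12.5 mg/kg (interval -0.064 to 0.60, adjusted p = 0.999; with the block 0.31 ± 0.13 and 0.462). Slides 1, 2 and 3 gave 0.30, 0.31 and 0.41 for 12.5 mg/kg, and 0.15, 0.29 and 0.55 for 25 mg/kg. All 5 animals at 25 mg/kg lay above the untreated mean, and 1 above the untreated range.

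Bbc3, a BH3-only protein that promotes Bax activity, varied more between animals than between doses. Its ratio was -0.15, 0.16, 0.16, 0.71 and 0.50 at 0 mg/kg and 0.82, 0.61, -0.81, -0.37 and -0.42 at 6.25 mg/kg. It was -0.44, 0.42, 0.01 and -0.17 at 12.5 mg/kg and -0.53, 0.13, -0.51, 0.29 and -0.05 at 25 mg/kg. Animals differed widely within a dose, and most at 6.25 mg/kg. The change was -0.31 ± 0.28 at 6.25 and -0.32 ± 0.29 at 12.5 mg/kg (adjusted p = 0.934 and 0.999), and -0.41 ± 0.28 at 25 mg/kg as a description. Within slides it ran from -1.03 to 0.86 at 6.25 mg/kg and from -0.78 to 0.051 at 12.5 mg/kg. Without slide 1 it was 0.0022 at 6.25 and -0.065 at 12.5 mg/kg, and without 6.25 mg/kg replicate 3 it was -0.12 at 6.25 mg/kg.

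Pmaip1, another BH3-only protein, was well above background in liver on 3 of 19 arrays: 2 at 25 mg/kg, 1 at 0 mg/kg and none at the doses between. No fold change is given for it. Its reference signal was above background on all 19 arrays.

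Trp53inp1 had 2 probes whose changes differed in sign. The brighter gave 0.34 ± 0.32 at 6.25, 0.29 ± 0.34 at 12.5 and 0.21 ± 0.32 at 25 mg/kg, while the other gave -0.099 ± 0.22, -0.21 ± 0.23 and -0.16 ± 0.22. Neither probe passed at 6.25 or 12.5 mg/kg (adjusted p from 0.938 to 0.999). Perp had changes of -0.0098 ± 0.10 at 6.25, -0.11 ± 0.11 at 12.5 and 0.039 ± 0.10 at 25 mg/kg. For Perp the interval at 12.5 mg/kg was -0.34 to 0.12.

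**Figure D2:**
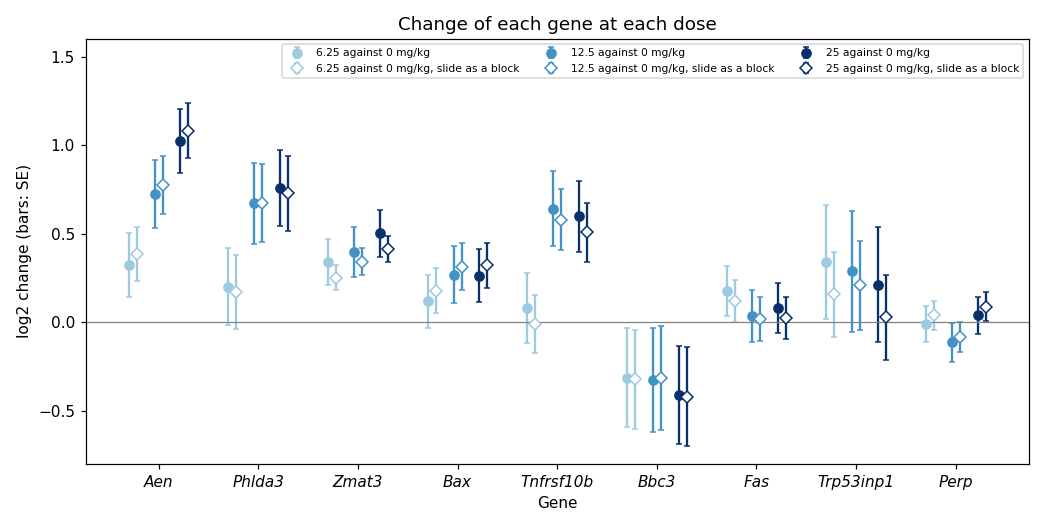
Log2 change against 0 mg/kg for each measured gene at 6.25, 12.5 and 25 mg/kg, with the standard error as bars. Filled circles are the fit without slide and open diamonds the fit with slide as a block. Aen, Phlda3, Zmat3, Bax and Tnfrsf10b lie above 0 at 12.5 and 25 mg/kg, and Bbc3 lies below 0 at each dose in both fits, though not within every slide.

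Counted together, 8 of the 9 measured genes were higher at 25 mg/kg than at 0 mg/kg, with a median log2 change of 0.26, where 48.3% of all 13812 genes were higher and their median was -0.0076. At 12.5 mg/kg 7 of 9 were higher (median 0.29, against 46.1% and -0.017 over all genes), and at 6.25 mg/kg 7 of 9 (median 0.17, against 50.8% and 0.0032). At 25 mg/kg 1 of the 9 genes, Aen, passed in limma without the block, where 0.0578% of all probes passed, and 2, Aen and Zmat3, passed with the block, where 0.809% did. The count without the block was 0 in 13 of 19 fits that left out 1 array: replicate 1, 2, 3 or 5 at 25 mg/kg, replicate 2 at 12.5 mg/kg, replicate 2, 3 or 4 at 6.25 mg/kg, or any of the 5 at 0 mg/kg. Nothing is read from the counts at 25 mg/kg, since the choice of genes followed that comparison.

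None of the 9 passed at the other doses. At 12.5 mg/kg limma called 0% of all probes, and 0.0068% with the block. Before adjustment, 4 of the 9 genes (Aen, Phlda3, Zmat3 and Tnfrsf10b) and 4.21% of all probes (1239) had p under 0.05. At 6.25 mg/kg it called 0% with or without the block, and before adjustment 1 of 9 (Zmat3) and 5.57% of probes (1639) had p under 0.05. Between 12.5 and 6.25 mg/kg it called 0%, and 0.0034% with the block, and before adjustment 1 of 9 (Tnfrsf10b) and 4.41% of probes (1296) had p under 0.05. The genes were chosen with these data known, so the counts are not independent evidence.

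As for groups that did not overlap, every treated animal lay above every untreated one for Aen alone at 25 mg/kg (1.01% of all probes), for Aen and Phlda3 at 12.5 mg/kg (0.5% of probes) and for none of the 9 genes at 6.25 mg/kg (0.561%).

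**Figure D3:**
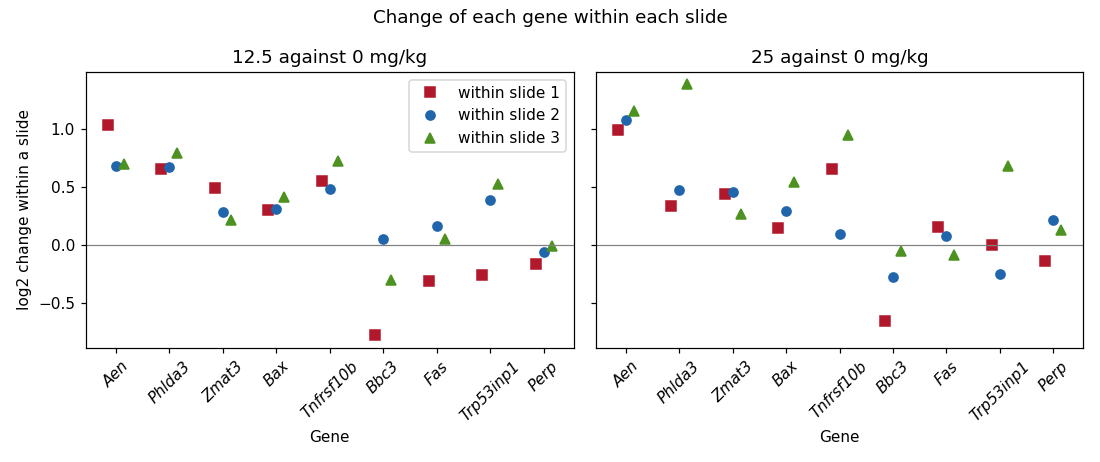
Log2 change against 0 mg/kg within each of the 3 slides, at 12.5 mg/kg (left) and 25 mg/kg (right). Slide 1 holds 1 animal at each of these doses, and slide 3 holds 1 at 12.5 mg/kg and 1 at 0 mg/kg. Aen, Phlda3, Zmat3, Bax and Tnfrsf10b are above 0 within every slide at both doses, whereas Bbc3, Fas, Trp53inp1 and Perp fall on both sides of 0 in at least 1 of the panels.

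Among animals, some of the 9 genes varied with Aen and others did not. After each slide's mean was removed, the Pearson correlation with Aen over 19 arrays was 0.86 for Phlda3, 0.78 for Bax, 0.74 for Tnfrsf10b and 0.71 for Zmat3, which placed them at ranks 3, 8, 21 and 34 of 13545 genes. It was 0.16 for Trp53inp1, 0.12 for Perp, -0.085 for Fas and -0.21 for Bbc3. The arrays share their 4 dose groups, so part of any such value is the dose itself. With dose and slide both removed, the correlation with Aen was 0.74 for Phlda3, 0.73 for Bax and 0.49 for Tnfrsf10b, but -0.30 for Zmat3. It was then 0.27 for Trp53inp1, 0.15 for Bbc3, -0.025 for Perp and -0.15 for Fas. A rank among all genes is not given for these values.

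**Figure D4:**
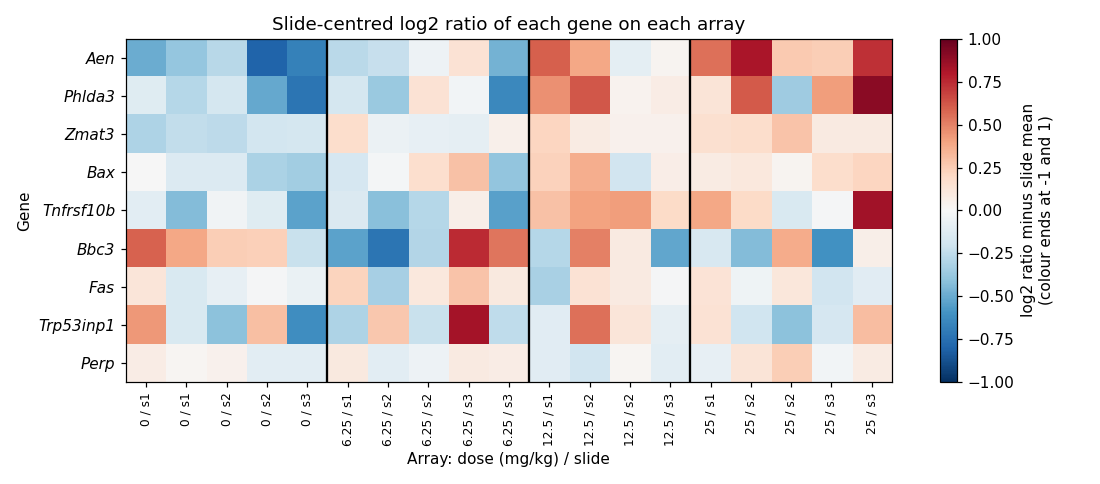
Log2 ratio of each measured gene on each of the 19 arrays after the mean of its slide was removed, with arrays ordered by dose and then slide. Aen, Phlda3, Zmat3, Bax and Tnfrsf10b are low or near 0 at 0 mg/kg and mostly high at 12.5 and 25 mg/kg. Bbc3, Fas, Trp53inp1 and Perp show no such order.

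Outside the list, the genes whose pattern was most like Aen were Cplane1 (0.92), a ciliogenesis gene, Ccng1 (0.88), a cyclin induced by p53, Atp8b5 (0.85), Ring1 (0.82) and Fcgbp (0.81). With dose and slide both removed, their correlations were 0.65, 0.72, 0.64, 0.66 and 0.71 in the same order. The log2 change of Ccng1 was 1.16 at 25, 0.90 at 12.5 and 0.85 at 6.25 mg/kg, and that of Atp8b5 1.41, 0.92 and 0.81. For Ring1 the changes were 0.28, 0.22 and 0.23, well below those of Aen at 25 and 12.5 mg/kg. At 6.25 mg/kg Aen itself had 0.33 ± 0.18. Cplane1 had 2.92 at 25 mg/kg on its brightest probe, but 1.44 and -0.018 on its other probes.

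Regulators of p53 had median changes near 0. Of 18 measured regulators none passed at any dose with or without the block. Few probes of any kind did: at 25 mg/kg 0.0578% passed without the block and 0.809% with it. The median change of the regulators was 0.0086 at 25 and 0.059 at 12.5 mg/kg. Before adjustment, limma without the block gave p under 0.05 for 2 regulators at 25 mg/kg (7.37% of all probes). It did so for 0 at 12.5 mg/kg (4.21%) and 6.25 mg/kg (5.57%). Trp53 itself, which encodes p53, had 0.021 ± 0.19 at 25, 0.085 ± 0.21 at 12.5 and -0.039 ± 0.19 at 6.25 mg/kg. Mdm2, the ligase that degrades p53 and is also its target, had 0.23 ± 0.10, 0.18 ± 0.11 and 0.18 ± 0.10. The 3 of smallest p at 12.5 mg/kg were Atr (0.21), Mdm2 and Cdkn2a (0.28), each with adjusted p = 0.999. A second Cdkn2a probe gave 0.11 at that dose.

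Among arrest and repair targets, 17 of 20 measured genes were higher at 25 mg/kg (median 0.32, and 0.21 with the block) and 18 of 20 at 12.5 mg/kg (median 0.31). Over all genes, 48.3% were higher at 25 mg/kg and 46.1% at 12.5 mg/kg. Without the block none passed at any dose, where 0.0578% of all probes passed at 25 mg/kg. Before adjustment, 7 of the 20 had p under 0.05 at 25 mg/kg (7.37% of all probes) in limma without the block. At 12.5 mg/kg 4 did (4.21%), and at 6.25 mg/kg 4 (5.57%). With the block 2 rose at 25 mg/kg, where 0.483% of all probes did: Ccng1 (0.94 ± 0.16, adjusted p = 0.0151) and Dglucy (0.72 ± 0.15, adjusted p = 0.0369). Without it these had 1.16 ± 0.30 and 0.70 ± 0.16 (adjusted p = 0.204 and 0.134). A second Dglucy probe did not pass at 25 mg/kg (0.50 with the block, adjusted p = 0.134) and stood at -0.0096 at 12.5 mg/kg. Cdkn1a, the cell cycle inhibitor p21, had 1.01 ± 0.41 at 25, 0.86 ± 0.43 at 12.5 and 0.37 ± 0.41 at 6.25 mg/kg (adjusted p = 0.558, 0.999 and 0.942). The smallest p at 12.5 mg/kg belonged to Gadd45a (0.90 ± 0.27, adjusted p = 0.941), Ccng1 and Plk3 (1.06 ± 0.41, adjusted p = 0.999).

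The mitochondrial apoptosis machinery had medians near 0. Of 20 measured genes of the mitochondrial list none passed at any dose, with medians of 0.023 at 25 and -0.011 at 12.5 mg/kg. Of all probes, 0.0578% passed at 25 mg/kg without the block and 0.809% with it. Before adjustment, 5 had p under 0.05 at 25 mg/kg (7.37% of all probes), 2 at 12.5 mg/kg (4.21%) and 3 at 6.25 mg/kg (5.57%) in limma without the block. The smallest p at 12.5 mg/kg belonged to Bmf, a BH3-only gene (1.01 ± 0.42), Bid, which links death receptors to mitochondria (0.25 ± 0.10), and Bok (-0.48 ± 0.25), each with adjusted p = 0.999.

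One gene of the death receptor list passed with the block. Cflar encodes FLIP, which holds caspase-8 inactive at Fas and TRAIL receptors. At 25 mg/kg its log2 ratio was 0.84, 0.78, 0.75, 0.69 and 1.67, against 1.52, 1.65, 1.10, 1.87 and 2.25 at 0 mg/kg. The value of 1.67 came from slide 1, where the untreated animals had 1.87 and 2.25. Cflar fell by 0.60 with slide as a block (SE 0.11, adjusted p = 0.0194), where 0.326% of all probes fell, and stood at -0.73 ± 0.22 without it (adjusted p = 0.272).

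Within slides 1, 2 and 3 the change of Cflar was -0.39, -0.66 and -0.70. The lower doses gave -0.44 at 6.25 and -0.50 at 12.5 mg/kg (adjusted p = 0.891 and 0.999). Its further probes gave -0.16 and -0.39 at 25 mg/kg with the block (adjusted p = 0.719 and 0.113), so 1 of its 3 probes passed. Of the other 11 measured genes of that list none passed. Of all probes, 0.0578% passed at 25 mg/kg without the block and 0.809% with it. Before adjustment, 5 of the 12 had p under 0.05 at 25 mg/kg (7.37% of all probes), 1 at 12.5 mg/kg (4.21%) and 0 at 6.25 mg/kg (5.57%) in limma without the block. Casp8 had 0.29 and the adaptor Traf2 -0.35 at 12.5 mg/kg (adjusted p = 0.999 for both). A second Traf2 probe gave -0.019 at that dose. Fasl, the ligand of Fas, was well above background in liver on 0 of 19 arrays and is named after its values were seen.

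Markers of the other liver cell types were measured beside these genes, since Fas and Tnfrsf10b are also made outside hepatocytes. At 25 mg/kg the mean log2 ratio of 11 of 12 macrophage markers lay between 1.75 and 2.78, against 2.20 to 3.64 at 0 mg/kg. For 10 of 13 lymphocyte markers it lay between -0.85 and -0.73, against -0.86 to -0.41. For 9 of 9 endothelial markers it was 1.86 to 2.56, against 2.02 to 2.65, and for 9 of 9 stellate markers -2.09 to -1.68, against -2.19 to -1.81. For 5 of 6 cholangiocyte markers it was -2.49 to -1.89, against -2.22 to -1.79. The medians of these means at 25 and 0 mg/kg were 2.41 and 2.28 for macrophage and 2.31 and 2.09 for endothelial markers. They were -0.76 and -0.64 for lymphocyte, -1.91 and -1.89 for stellate and -2.27 and -1.98 for cholangiocyte markers. Of the 10 hepatocyte markers, 9 were lower at 6.25 mg/kg, 10 at 12.5 and 10 at 25 mg/kg. Over all genes, 50.8, 46.1 and 48.3% were higher at those doses. The median changes of the hepatocyte markers were -0.28, -0.27 and -0.23 in that order, and -0.096, -0.074 and -0.074 with the block. The other lists had medians between -0.12 and 0.14 at 6.25 mg/kg and between -0.078 and 0.095 at 12.5 mg/kg. At 25 mg/kg the median was -0.16 for macrophage, -0.12 for lymphocyte, 0.056 for endothelial, -0.077 for stellate and -0.15 for cholangiocyte markers. With the block these were -0.040, -0.16, 0.095, -0.078 and -0.15. The ranges at 25 and 0 mg/kg overlapped for each list, no marker passed in either fit, and their part in the changes above was not tested.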

How the data were processed

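Two-colour Agilent arrays compared liver RNA (Cy5) with a reference RNA (Cy3), with no dye swap, per the labels. The deposited scanner files hold median spot and local background intensity on a linear scale, and an intensity background-subtracted and dye-normalised by the scanner software, per the file headers (Feature Extraction, version 10.7.3.1). The deposited value table holds log2 ratios of liver over reference. How it was centred is not given in the sources used here. Its column medians were -0.036 to -0.022, and it correlated at 0.993 to 0.996 with a loess ratio without background subtraction.

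Median signals were corrected with normexp (offset 50) and loess in limma 3.58.1 (R 4.3.3). Control spots had weight 0 and outlier spots were set to missing (0.623%). A probe was kept when over 0.5 of its spots were well above background in liver on at least 4 arrays (29415 of 55681). Symbols came from RefSeq accessions (GRCm38.p6, names only, 47.4% of probes), and a gene stands on its brightest kept probe. Group means were fitted over 19 arrays with limma's lmFit and eBayes, two-sided, with Benjamini-Hochberg adjustment over 29415 probes and a threshold of 0.05. The fit was tested on simulated data that held no slide effect, so that test cannot speak to how slide moves the counts. Intervals use the moderated degrees of freedom, and the number of arrays limits the precision.

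The genes, the pathway lists and the naming rule were chosen with earlier results of these data known. The rule names all 10 genes, Trp53, Mdm2, Cdkn1a and Ccng1, the 5 genes most like Aen, and from each pathway list those that passed (up to 6) and the 3 of smallest p at 12.5 mg/kg.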

Additional observations from a re-analysis of the deposited data

Results flagged for a closer look

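Among 36 groups of 4 or 5 animals (9 genes at 4 doses), 1 held an animal far from the others by Dixon's test at the 95% level, where chance gives about 1 in 20. It was Zmat3 in replicate 5 at 25 mg/kg, with a log2 ratio of -1.72 against -1.34 to -1.23 in the other 4 animals. That animal was the only one of its dose on slide 1, and Zmat3 was lowest on slide 1 in each of the other doses as well. Within slide 1 its change against 0 mg/kg was 0.44.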

How the results depend on the processing

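Changing 1 choice at a time left Aen above 0 mg/kg at every dose and setting tried (25 mg/kg: 0.95 to 1.15, 12.5 mg/kg: 0.68 to 0.78, 6.25 mg/kg: 0.30 to 0.46). Counts moved more than values. At 25 mg/kg 17 probes and 1 of the 9 genes passed. With slide as a block these were 238 and 2, with no filter on dim probes 10 and 0, with the liver channel alone 83 and 2, with only the compared arrays 48 probes, and without slide 1 29 probes. At 12.5 mg/kg 0 probes passed, against 2 with the block, 3 among probes above background on all 19 arrays, 6 with only the compared arrays and 2 with the liver channel alone. Between 12.5 and 6.25 mg/kg 0 passed, and 1 with the block. Leaving out 1 array at a time gave 0 to 67 probes and 0 to 1 genes at 25 mg/kg (25 to 320 and 2 to 2 with the block), 0 to 5 probes at 12.5 mg/kg (0 to 15 with the block), 0 at 6.25 mg/kg (0 to 19) and 0 between 12.5 and 6.25 mg/kg (0 to 3). The liver channel alone and the fit without slide 1 were added after the data were seen. Aquantile leaves log ratios as they are, so scaling between arrays was added as well. The cause of these moves was not tested. No paired analysis was possible because the labels give no number shared between dose groups. Dim liver signal limits Pmaip1 and Tnfrsf10b. The liver signal of Zmat3 was low as well, though well above background on all 19 arrays.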
